A study of Mus musculus with 16 samples.

Results

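Expression of 10 genes that govern entry into the cell cycle was followed across 6 Notch1 genotypes in endothelial cells of day 9.5 mouse embryos. They are the D cyclins Ccnd1, Ccnd2 and Ccnd3, the E cyclin Ccne1, the kinases Cdk4 and Cdk6, the Cip/Kip inhibitors Cdkn1a (p21), Cdkn1b (p27) and Cdkn1c (p57), and the transcription factor Myc. They are 10 of the 22096 gene symbols in the deposited tables and were taken by name, with the FPKM (mapped fragments per kilobase of transcript, relative to library size) of all transcripts of a symbol summed. The set was proposed with an earlier result of these data known, the lower level of Ccnd2 in 12/- embryos. Differences between 12/- embryos and any other genotype are therefore described for these genes with their size and standard error (SE) and are not offered as tests.

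The cells were sorted for CD31, a surface protein of endothelium that platelets also carry, from whole embryos. Embryos had 2 wild-type Notch1 alleles (+/+), 1 wild-type and 1 deleted allele (+/-), 1 wild-type and 1 vg allele (+/vg, a point mutant whose released intracellular domain is less stable), or 1 wild-type and 1 "12" allele (+/12, in which the Notch2 intracellular domain takes the place of that of Notch1). Each of these genotypes has 3 libraries, and the labels call their endothelial development normal; they are called the 4 normal genotypes here. The 12/- embryos (3 libraries) paired the 12 allele with the deletion and had endothelial dysfunction, and the 12/vg genotype (1 library) had partial dysfunction, per the labels. No wild-type Notch1 allele was left in either. The changes are carried in every cell of the embryo as far as the labels say, since no cell-specific driver is named, and whether a library came from 1 embryo or from a pool is not stated.

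Cells commit to division in G1, when D cyclins bind Cdk4 or Cdk6 and cyclin E binds Cdk2, and these kinases phosphorylate the retinoblastoma protein and release E2F factors. Cip/Kip proteins bind cyclin-kinase complexes and restrain them, and Myc drives cyclins and biosynthesis while repressing Cdkn1a. Notch1 signalling in endothelium is known for its links to this machinery, among them slower proliferation in arterial cells, and Myc and Ccnd1 are textbook Notch targets in other tissues.

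Of the 16 libraries, 14 held between 1.11 and 1.80 gigabases of aligned sequence, while +/- replicate 2 held 0.189 and the 12/vg library 0.262. All 10 endothelial markers on the list were expressed in every library. Their summed scaled FPKM was 778 to 1004 in 12/- and 731 to 921 in the 4 normal genotypes. The 5 leukocyte and macrophage markers summed to 5.10 to 7.51 in 12/- and 3.59 to 9.75 in the 4 normal genotypes. Of these, Ptprc, the pan-leukocyte marker, and Csf1r were under 1 in all 16 libraries, while Cd68, a lysosomal protein of macrophages, was 2.18 to 6.63 and Sfpi1 reached 3.69. The part of such cells in the values that follow was not tested. Pf4, a platelet and megakaryocyte gene, was high and varied from 225 to 1778. Notch2, whose reads include the swapped domain, was 3.39 to 4.40 in the 7 libraries with a 12 allele and 2.10 to 3.41 in the other 9. Notch1 was 17.4 to 23.3 in +/+, 16.4 to 23.2 in +/-, 14.5 to 16.0 in +/12 and 15.4 to 19.7 in 12/-. Its level thus did not set +/- apart from +/+. Each deposited file carries a number, 371 to 380 in 7 libraries and 203 to 248 in 9, and the labels name no batch. All +/+ libraries have a high number and all +/12, 12/vg and 12/- libraries a low one, so in 12/- against +/+ and in +/12 against +/+ the genotype and the number range cannot be told apart.

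The sequence in front of the start site was given for 6 of the 10 genes, and those shown here are of Cdk4, with repeated copies of the element that Myc binds, and of Cdkn1a and Cdkn1b, the 2 inhibitors that were on average higher in 12/- embryos. Each is the 250 bases upstream of a RefSeq start site on GRCm38.p6, plus strand, written in lower case with motif matches in capitals. Motifs were searched on both strands: TGGGAA (the core that the Notch partner RBPJ binds), ACGTG and GCGTG (the core bound by hypoxia-inducible factors), CACGTG (the E box, which Myc and Max bind, and which also counts as a hypoxia core on each strand), and TTTGGCGC and TTTCGCGC (an E2F site). Positions count bases before the start site.
Cdk4, chr10:127063285-127063534: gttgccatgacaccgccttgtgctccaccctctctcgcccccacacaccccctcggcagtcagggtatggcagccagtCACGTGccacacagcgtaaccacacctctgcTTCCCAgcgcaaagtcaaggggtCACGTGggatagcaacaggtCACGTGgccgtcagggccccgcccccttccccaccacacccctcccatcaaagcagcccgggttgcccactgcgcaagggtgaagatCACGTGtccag
Cdkn1a, upstream start, chr17:29090729-29090978: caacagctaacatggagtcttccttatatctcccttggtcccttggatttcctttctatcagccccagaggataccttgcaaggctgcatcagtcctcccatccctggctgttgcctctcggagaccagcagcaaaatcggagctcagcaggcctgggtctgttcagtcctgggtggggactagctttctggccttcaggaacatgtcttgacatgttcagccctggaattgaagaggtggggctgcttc
Cdkn1a, downstream start, chr17:29093519-29093768: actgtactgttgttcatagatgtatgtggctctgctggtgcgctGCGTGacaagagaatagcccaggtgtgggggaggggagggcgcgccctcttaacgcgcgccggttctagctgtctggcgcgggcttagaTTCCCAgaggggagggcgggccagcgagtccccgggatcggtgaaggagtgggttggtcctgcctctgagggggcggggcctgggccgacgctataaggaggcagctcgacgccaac
Cdkn1b, chr6:134920151-134920400: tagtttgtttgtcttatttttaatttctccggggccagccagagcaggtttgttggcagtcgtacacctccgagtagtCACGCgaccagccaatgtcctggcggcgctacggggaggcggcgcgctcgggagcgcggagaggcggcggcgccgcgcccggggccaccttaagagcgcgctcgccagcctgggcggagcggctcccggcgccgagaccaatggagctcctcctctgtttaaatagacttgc

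The Cdk4 window holds 4 E boxes, at -172, -118, -98 and -11, and 1 RBPJ core read on the other strand at -141. At least 1 E box occurs in 6.02% of the 32851 RefSeq windows of this length, and at least 4 occur in 7 of them (0.0213%), the Cdk4 window included. The threshold of 4 was taken from the Cdk4 window, which is shown for its E boxes, so this share is no test. The downstream window of Cdkn1a holds 1 hypoxia core at -206 and 1 RBPJ core at -117, while its upstream window holds none of the motifs. The Cdkn1b window holds 1 hypoxia core at -172. Across all windows, 21.6% hold an RBPJ core, 38.6% a hypoxia core and 0.654% one of the E2F words, which none of the members' windows carries. Ccnd3, Ccne1 and Cdk6 were searched as well: Ccne1 holds 4 hypoxia cores, the second Ccnd3 window 1, and Cdk6 3, of which 2 are the strands of its 1 E box. These matches describe letters in a window and are not evidence of binding.

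In 12/- embryos Ccnd2 was lower and Cdkn1b was higher than in every library of the 4 normal genotypes. Cdkn1a was on average higher and Cdkn1c and Ccne1 on average lower, each with libraries that overlapped those of the normal genotypes. Ccnd1, Ccnd3, Cdk4, Cdk6 and Myc overlapped as well. The comparison used limma on log2(scaled FPKM + 1) over 10550 genes, with scaled FPKM meaning FPKM after division by a library factor, and a gene counts as called at a Benjamini-Hochberg adjusted p under 0.05. All 10 genes passed the filter of a mean FPKM of at least 1.

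Set against single genotypes, the 3 libraries of 12/- did not overlap the 3 of +/+ for Cdkn1a and Cdkn1b, which were higher (2 of 10 genes, beside 10.4% of all genes tested), and for Ccnd2, Ccne1 and Cdkn1c, which were lower (3 of 10, beside 9.46%). Against +/-, only Cdkn1b was fully higher (1 of 10, beside 7.74%) and only Ccnd2 fully lower (1 of 10, beside 6.41%). Against +/vg, Ccnd1, Ccnd3 and Cdkn1b were higher (3 of 10, beside 10.2%) and Ccnd2 was lower (1 of 10, beside 10.5%). Against +/12, Cdkn1b was higher (1 of 10, beside 7.93%) and Ccnd2, Cdk4 and Cdkn1c were lower (3 of 10, beside 6.84%). Ccnd2 and Cdkn1b are thus the genes that were apart in each comparison, and nothing more is read from these counts, because the set was proposed from the 12/- embryos.

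Averaged over the 16 libraries, scaled FPKM was 287 for Cdk4 (rank 190 of the 10550 genes), 129.7 for Cdkn1c (rank 372), 61.4 for Ccnd3, 57.7 for Ccnd1, 35.2 for Myc, 12.1 for Ccnd2, 9.24 for Cdkn1a, 5.74 for Ccne1, 2.64 for Cdk6 and 2.39 for Cdkn1b (rank 8567). FPKM is per length, so these levels can be set beside each other. Cdk4 was the more abundant of the kinases, Ccnd3 and Ccnd1 of the D cyclins, and Cdkn1c of the Cip/Kip inhibitors.

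**Figure D1:**
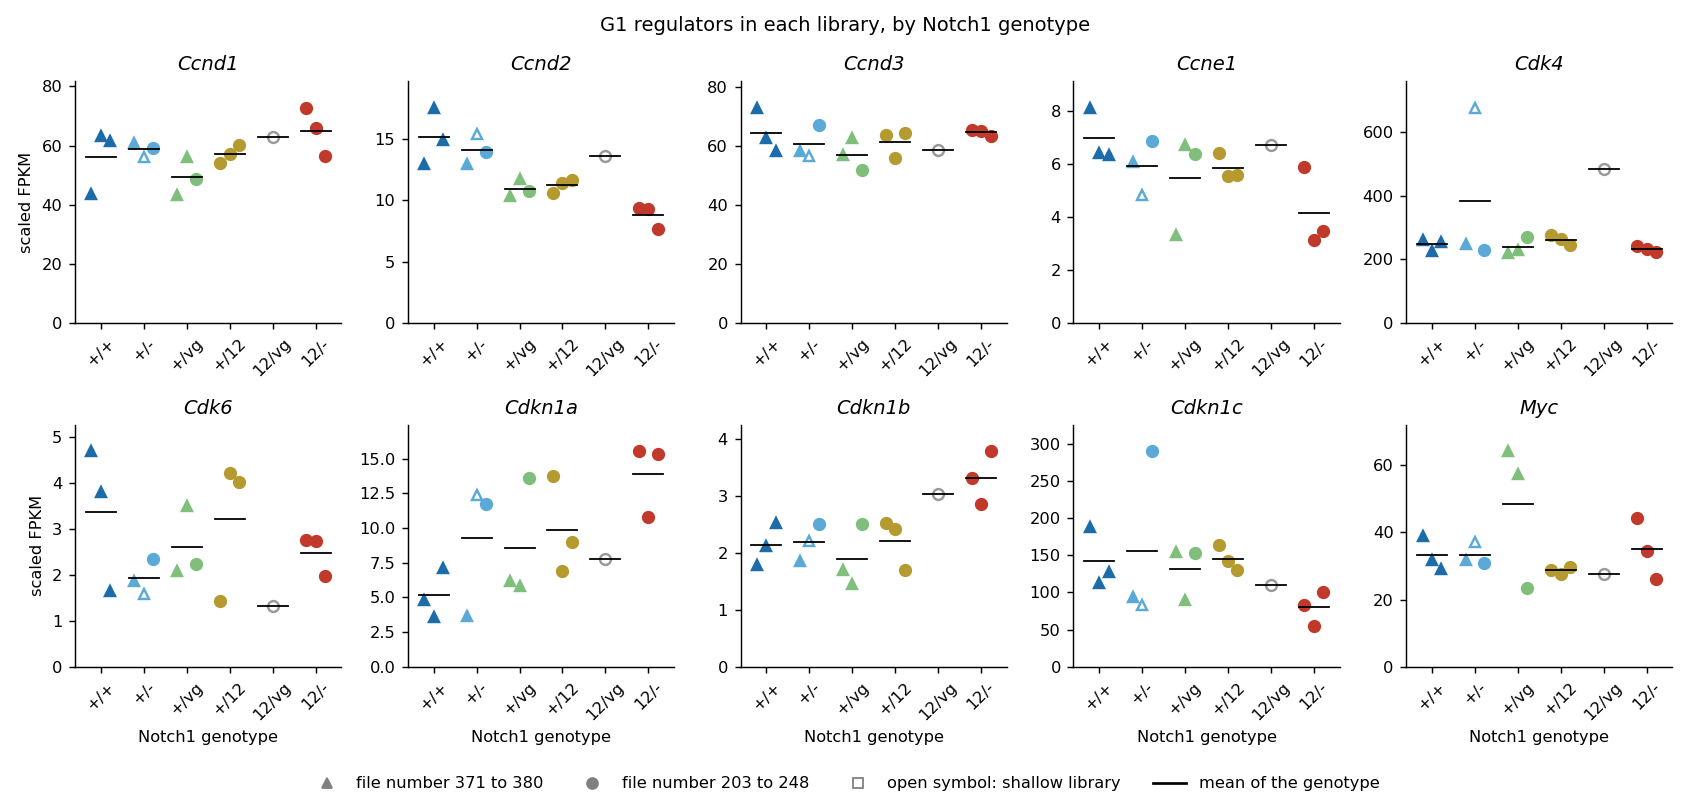
Scaled FPKM (vertical axes, linear from 0) of the 10 genes in each of 16 libraries, by Notch1 genotype (horizontal axes). Each point is a library, triangles have a file number of 371 to 380 and circles of 203 to 248, open symbols are the 2 shallow libraries, and lines are genotype means. The 3 points of 12/- lie below all normal points for Ccnd2 (7.65 to 9.40) and above them for Cdkn1b (2.85 to 3.78).

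Ccnd2, the D cyclin that was lowest of the family throughout, was 12.9, 17.5 and 14.9 scaled FPKM in the 3 +/+ libraries and 12.9, 15.3 and 13.9 in +/-. It was 10.3, 11.7 and 10.8 in +/vg and 10.5, 11.4 and 11.7 in +/12. The 12/- libraries gave 9.40, 9.27 and 7.65, below the lowest of the 12 normal libraries, and the 12/vg library gave 13.6, inside the +/+ range. Over all genes tested, 0.929% lay below all 12 normal libraries in the same way.

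By mean the order of Ccnd2 was +/+ (15.1 ± 2.28 SD, n = 3), +/- (14.0 ± 1.23), +/12 (11.2 ± 0.584), +/vg (10.9 ± 0.708) and 12/- (8.78 ± 0.975). The neighbours +/+ and +/- overlapped, as did +/12 and +/vg. The 12/vg library, which carries a 12 and a vg allele, gave 13.6. The log2 difference of 12/- was -0.72 ± 0.12 (SE) from +/+, -0.62 ± 0.12 from +/-, -0.32 ± 0.12 from +/12, -0.29 ± 0.12 from +/vg and -0.49 ± 0.10 from the mean of the 4. These comparisons share the same 12/- libraries.

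Ccnd2 was the only one of the 10 genes called in any of them. It was called lower against +/+ (1 of 10 genes, where 0.607% of all genes were called in either direction and 0.0664% lower), against +/- (1 of 10, 0.569% and 0.0569%) and against the mean of the 4 (1 of 10, 0.787% and 0.0664%). No member was called against +/12 (0.209% of all genes) or +/vg (0.445%) in limma. An unadjusted p under 0.05 was found for 4 members against +/+ (beside 12.2% of all genes), 2 against +/- (11.7%), 3 against +/12 (5.3%), 3 against +/vg (10%) and 5 against the mean of the 4 (11.5%). As above, nothing is read from these counts. The call against +/+ was lost without +/+ replicate 2 (log2 difference -0.61) or 3 (-0.72) and without 12/- replicate 1 (-0.76) or 3 (-0.63). Against +/- it was lost without any single library other than +/+ replicates 1 and 2 and 12/vg (-0.68 to -0.54). Against the mean of the 4 it was lost without +/+ replicate 3 and without any 1 of the +/vg libraries, +/12 replicates 2 and 3 and the 12/- libraries (-0.54 to -0.40). The normal libraries had a median Ccnd2 level of 12.9 with high file numbers and 11.4 with low ones, which mix genotypes. Within +/- the low library had 13.9 and the high ones 14.1 on average. Within +/vg the low library had 10.8 and the high ones 11.0 on average. Within the low numbers, where the 3 libraries of 12/- face 5 of normal genotypes, the log2 difference was -0.37 ± 0.11 and Ccnd2 was not called. With the number range as covariate the difference from +/+ was -0.69 ± 0.18, close to the value without it, and Ccnd2 was not called either. With no scaling of the libraries it was not called in any of the 3 comparisons.

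The 2 abundant D cyclins were not lower in 12/- embryos. Ccnd1 was 72.7, 65.9 and 56.5 in 12/- against 43.3, 56.8 and 63.3 as lowest, median and highest of the 12 normal libraries. Its log2 difference from the mean of the 4 was 0.23 ± 0.12, with the size ranging from 0.14 against +/- to 0.39 against +/vg, and 12/- lay fully above +/vg alone among the genotypes. Ccnd3 was 65.4, 65.1 and 63.4 in 12/- and 51.7, 60.4 and 72.8 as lowest, median and highest of the normal libraries, a log2 difference of 0.09 ± 0.09. Ccnd3 overlaps Bysl in the annotation of the files, so reads of either may have entered the other's estimate.

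The sum of the D cyclin levels shows how the family was made up. The summed scaled FPKM of the 3 was 136 ± 7.01 (SD, n = 3) in +/+ and 138 ± 10.1 in 12/-, which overlapped. Ccnd2 held 11.1% ± 1.10 of that sum in +/+, 10.6% ± 1.24 in +/-, 9.32% ± 0.361 in +/vg, 8.64% ± 0.476 in +/12 and 6.33% ± 0.311 in 12/-. The 12/- shares, 6.00% to 6.61%, lay below the lowest normal share, 8.20% in +/12. The 12/vg library had 10.0%. Since cell numbers were not measured, fewer cells that use Ccnd2 and less Ccnd2 RNA per cell cannot be told apart here, and the same holds for the genes that follow.

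**Figure D2:**
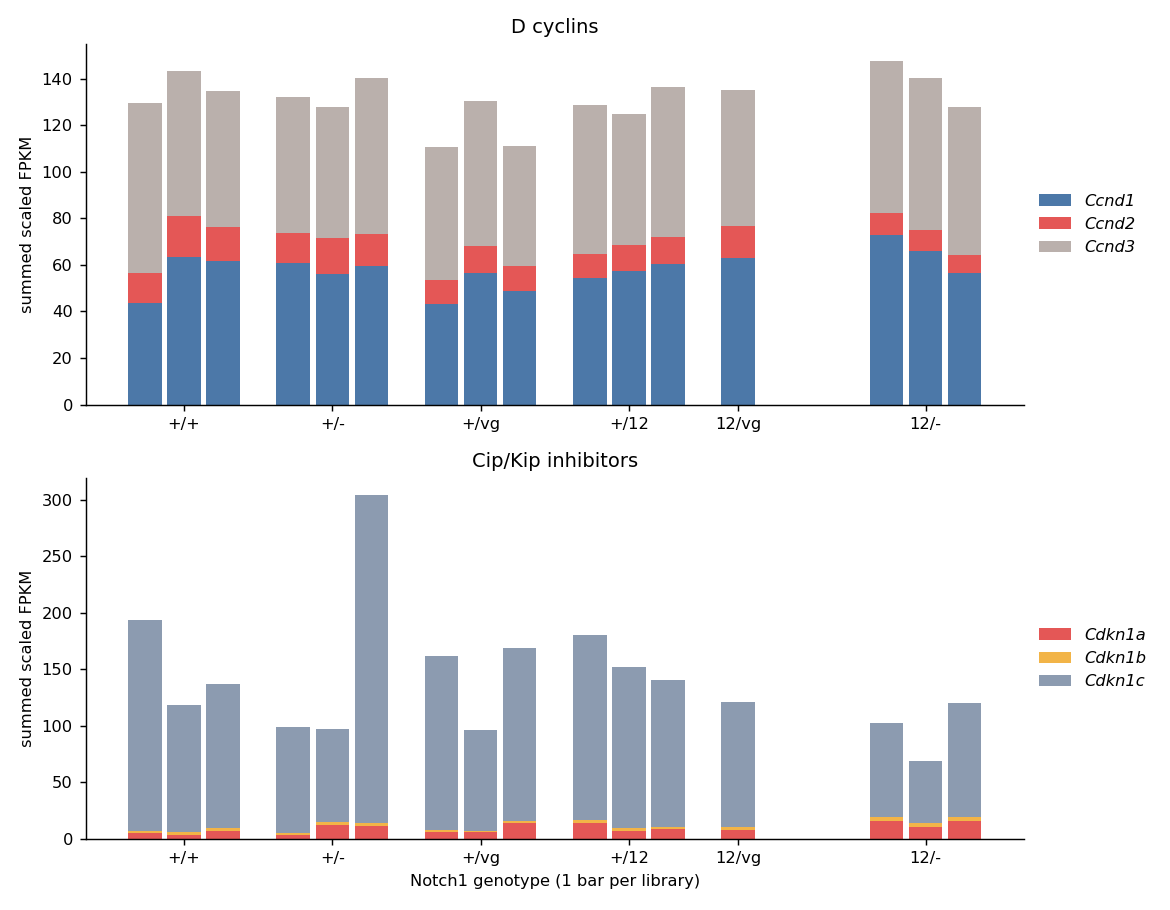
Summed scaled FPKM (vertical axes, from 0) of the D cyclins (top) and of the Cip/Kip inhibitors (bottom), with 1 stacked bar per library grouped by Notch1 genotype. The Ccnd2 band holds 6.00% to 6.61% of the bar in 12/-. At the bottom, Cdkn1a and Cdkn1b take a larger part of the 12/- bars than of the +/+ bars. The 12/- bars there overlap in height with those of +/+, +/- and +/vg.

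Ccne1, the cyclin that carries Cdk2 into S phase, was 5.87, 3.15 and 3.47 in 12/- and 8.11, 6.42 and 6.35 in +/+. These genotypes did not overlap, but +/vg replicate 1 (3.34), +/- replicate 2 (4.84) and +/12 replicates 2 and 3 (5.55 and 5.59) lay within the 12/- range. The log2 difference of 12/- was -0.65 ± 0.23 from +/+, -0.45 ± 0.23 from +/-, -0.44 ± 0.23 from +/12, -0.32 ± 0.23 from +/vg and -0.47 ± 0.18 from the mean of the 4. Within the low file numbers it was -0.50 ± 0.17. With the number range as covariate the difference from +/+ was -0.97. That covariate rests on +/- and +/vg, which hold 1 low library each.

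Cdk4, the catalytic partner of D cyclins, was 243, 233 and 224 in 12/- and 219.8 to 278 in the 11 deep libraries of normal genotypes. The 2 shallow libraries stood apart, with 675 in +/- replicate 2 and 485 in 12/vg, at least 1.74 times the highest deep library. Among all genes, 9.40% were above every deep library in both shallow ones and 32 genes (0.303%) by a factor at least as large. None of the other 9 genes was above, or below, all deep libraries in both shallow ones. With +/- replicate 2 in the fit the log2 difference of 12/- from +/- was -0.53 ± 0.30, and it was -0.03 without that library. The differences from the other genotypes were -0.09 ± 0.30 (+/+), -0.17 ± 0.30 (+/12) and -0.04 ± 0.30 (+/vg). Their SE rests on a spread shared by all genotypes, which includes +/- replicate 2. Within the low file numbers, which leave that library out, 12/- differed from the normal genotypes by -0.14 ± 0.08.

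Cdk6, the second partner of D cyclins, was near the filter at 2.75, 2.74 and 1.97 in 12/-, and the normal libraries spread from 1.44 to 4.70 with a median of 2.30. Its log2 difference from the mean of the 4 was -0.07 ± 0.25. The spread within +/+ alone, 1.64 to 4.70, covered every 12/- value.

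The Cip/Kip inhibitors differed in direction. Cdkn1b, which binds cyclin E complexes in resting cells, was 3.32, 2.85 and 3.78 in 12/- against 1.79, 2.12 and 2.53 in +/+, 1.86, 2.21 and 2.51 in +/-, 1.70, 1.45 and 2.50 in +/vg and 2.52, 2.42 and 1.70 in +/12. All 3 12/- values exceeded all 12 normal values, as did 1.91% of all genes, and the 12/vg library was at 3.04. The log2 difference was between 0.43 ± 0.17 (against +/- and against +/12) and 0.59 ± 0.17 (against +/vg), and 0.48 ± 0.13 from the mean of the 4. The normal libraries had medians of 2.50 with low and 1.86 with high file numbers, which mix genotypes. The difference was 0.38 ± 0.12 within the low numbers, and with the number range as covariate 0.13 from +/+ and 0.22 from +/-. Cdkn1b is a low gene, so the added 1 in the logarithm shrinks these values.

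Cdkn1a, the inhibitor best known as a p53 target, was 15.5, 10.8 and 15.3 in 12/-. It was 4.78, 3.58 and 7.10 in +/+, below every 12/- library, and 3.66, 12.4 and 11.7 in +/-. It was 6.15, 5.80 and 13.6 in +/vg and 13.8, 6.89 and 8.98 in +/12, so each of these 3 genotypes had a library inside the 12/- range. The log2 difference of 12/- was 1.30 ± 0.41 from +/+, 0.67 ± 0.41 from +/-, 0.48 ± 0.41 from +/12, 0.72 ± 0.41 from +/vg and 0.79 ± 0.33 from the mean of the 4. In the normal genotypes the 5 libraries with low numbers had a median of 11.7 (6.89 to 13.8) and the 7 with high numbers one of 5.80 (3.58 to 12.4). These medians mix genotypes, since all +/+ libraries have high numbers and all +/12 libraries low ones. Within +/- the low library had 11.7 and the high ones 3.66 and 12.4. Within +/vg the low library had 13.6 and the high ones 6.15 and 5.80. With the number range as covariate the log2 difference was 0.42 from +/+, 0.08 from +/- and 0.13 from +/vg. Within the low numbers 12/- differed from the normal genotypes by 0.33 ± 0.23.

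Cdkn1c, the imprinted inhibitor and the most abundant of the 3, was 83.4, 55.0 and 101 in 12/-. It was 187, 113 and 127 in +/+ and 164, 143 and 129.6 in +/12, both above all 12/- libraries. It was 93.2, 82.8 and 289.7 in +/- and 154.0, 89.3 and 153 in +/vg, which overlapped 12/-. The log2 difference was -0.84 ± 0.41 from +/+, -0.75 ± 0.41 from +/-, -0.89 ± 0.41 from +/12, -0.72 ± 0.41 from +/vg and -0.80 ± 0.32 from the mean of the 4. Without +/- replicate 3, the library with 289.7, the value against +/- was -0.18. The normal libraries had medians of 153 with low and 113 with high file numbers, which mix genotypes. Within the low numbers the difference was -1.11 ± 0.29, and with the number range as covariate it was -1.41 from the mean of the 4.

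The makeup of the summed Cip/Kip messages differed as well. Cdkn1c held 94.9% ± 1.84 (SD, n = 3) of the summed scaled FPKM of the 3 in +/+ and 81.9% ± 2.02 in 12/-. The share of Cdkn1a was 3.55% ± 1.44 in +/+ and 14.5% ± 1.58 in 12/-, and that of Cdkn1b was 1.52% ± 0.516 and 3.52% ± 0.558. In the other normal genotypes Cdkn1c held 91.6% (+/-), 92.7% (+/vg) and 92.4% (+/12) on average, and its lowest normal share, 85.0%, was in +/-. That is above the 80.1% to 84.1% of the 12/- libraries. The highest normal share of Cdkn1a, 12.71% in +/- replicate 2, was just below the lowest of 12/-, 12.735%. The summed level was 149.8 ± 39.3 in +/+ and 97.0 ± 26.2 in 12/-. It ranged from 68.7 to 120.3 in 12/-. This overlapped +/+ (118.7 to 194.0), +/- (97.4 to 304) and +/vg (96.5 to 168.8), while +/12 (140.3 to 180.4) lay above.

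**Figure D3:**
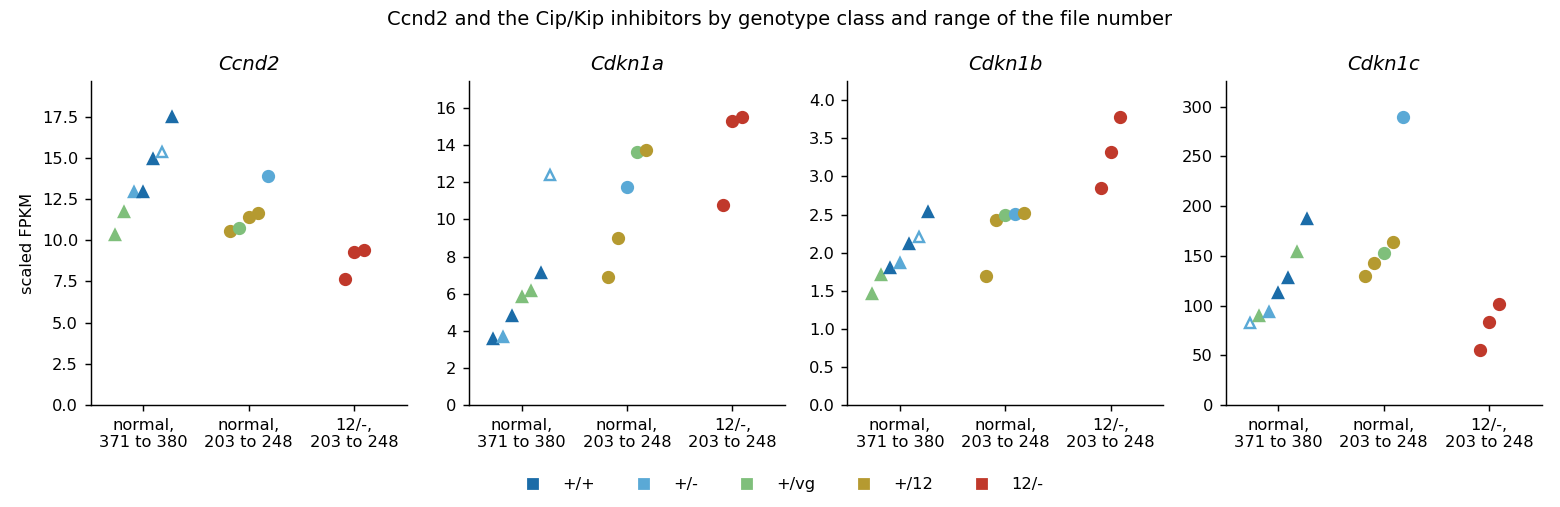
Scaled FPKM (vertical axes, linear from 0) of Ccnd2, Cdkn1a, Cdkn1b and Cdkn1c for normal genotypes with high file numbers, normal genotypes with low file numbers, and 12/- (horizontal axes), with 1 point per library coloured by genotype and the shallow library open. Cdkn1a is at 3.58 to 12.4 in normal libraries with high numbers and 6.89 to 13.8 in those with low numbers, which overlap 12/-. Ccnd2 of 12/- lies below all normal libraries, as do 0.929% of all genes, and Cdkn1b above them, as do 1.91%. With the number range as covariate the log2 difference of Cdkn1b from +/+ was 0.13, and 0.46 without it.

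Myc, which encodes the factor that couples growth signals to the cycle, was 44.4, 34.5 and 26.1 in 12/- and 38.9, 31.7 and 29.1 in +/+, with a log2 difference of 0.05 ± 0.30. The highest levels were in +/vg replicates 1 and 2 (64.1 and 57.5), while +/vg replicate 3 had the lowest of all libraries (23.3). In +/12 the 3 libraries lay close together at 28.7, 27.7 and 29.8. The difference of 12/- from +/vg was -0.36 ± 0.30, and -0.81 without +/vg replicate 3. The 2 high +/vg libraries have high file numbers and the low one has a low number. With the number range as covariate 12/- differed by 0.80 from +/+ and by 0.13 from +/vg.

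**Figure D4:**
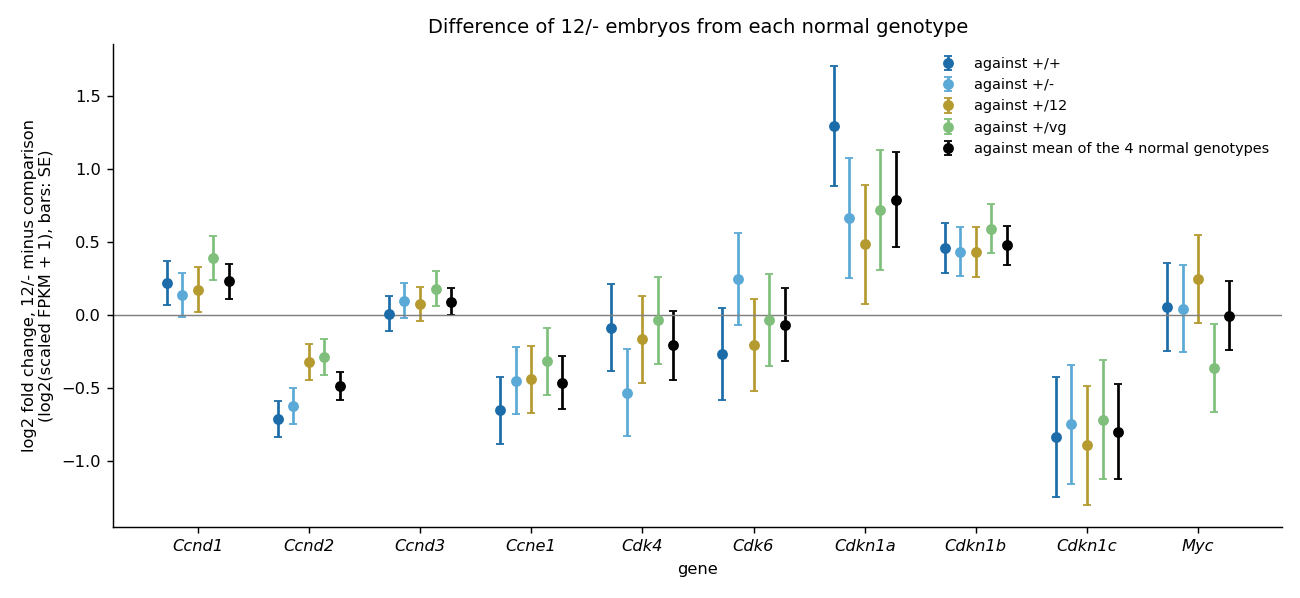
Log2 fold change of 12/- minus each comparison group (vertical axis, log2(scaled FPKM + 1), bars are SE) for the 10 genes (horizontal axis), with colours for the comparison. Ccnd2 lies below 0 (-0.72 to -0.29) and Cdkn1b above 0 (0.43 to 0.59) in all 5 comparisons. Ccne1, Cdk4 and Cdkn1c also lie below 0 in all 5, and Ccnd1, Cdkn1a and, by little, Ccnd3 above 0. Cdk6 and Myc have values on both sides of 0.

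Loss or change of 1 allele beside a wild-type one was compared with +/+. That no gene was called among the normal genotypes was known when the genes were proposed, so the absence of calls is no new result. The +/+ libraries are also among those that 12/- was set against, so the Ccnd2 values are not independent of the choice of genes. In limma no gene of the 10 was called in +/-, +/vg or +/12 (0.0% of the 10550 genes in each), and 0, 1 and 1 of the 10 had an unadjusted p under 0.05, against 7.51%, 7.52% and 5.37% of all genes. The 1 gene was Ccnd2 in both. Its log2 difference from +/+ was -0.43 ± 0.12 in +/vg (limma adjusted p = 0.405) and -0.39 ± 0.12 in +/12 (limma adjusted p = 0.898). In +/- it was -0.09 ± 0.12 (limma adjusted p = 0.861). Cdkn1a was 0.63 ± 0.41, 0.58 ± 0.41 and 0.81 ± 0.41 above +/+ in +/-, +/vg and +/12, with adjusted p of 0.734, 0.816 and 0.898 in limma. Since +/12 and +/+ lie in different number ranges, the +/12 values were also taken with the number range as covariate. Ccnd2 was then at -0.37 ± 0.18 and Cdkn1a at -0.07. Cdkn1c moved from 0.06 to -0.99, Myc from -0.19 to 0.55, Ccne1 from -0.21 to -0.53 and Cdkn1b from 0.03 to -0.30, and none of the 10 was called. Myc was 0.41 ± 0.30 higher in +/vg (limma adjusted p = 0.820), and 0.86 without +/vg replicate 3. These comparisons share the +/+ libraries.

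The 12 allele beside a deletion can be set against the 12 allele beside a wild-type allele as an interaction, the difference of 12/- from +/- minus that of +/12 from +/+. It contains the 12/- libraries, so it too is given for the 10 genes as a description and not as a test. The interaction was 0.41 ± 0.24 for Cdkn1b, -0.23 ± 0.17 for Ccnd2 and -0.81 ± 0.58 for Cdkn1c on the log2 scale. In limma none of the 10 was called (0.0474% of all genes were) and none had an unadjusted p under 0.05, beside 6.56% of all genes, and nothing is read from these counts.

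The tables list more than 1 RefSeq transcript for 4 of the genes. For Cdkn1a the form with the downstream start, whose promoter is the one with an RBPJ core above, held 97.0% of the level on average, and the upstream form held at most 13.8%. The main form held 98.5% for Ccnd3 and 97.5% for Cdkn1c. Myc has 2 forms on the same span that differ by 3 bases of length, and the shorter held 12.3% to 36.2% in 15 libraries but 99.98% in the shallow 12/vg library. On mm9, the build of the files, the transcripts of Ccnd1 span chr7:152115836-152125830, those of Ccnd2 chr6:127075727-127101066, those of Ccnd3 chr17:47642000-47736637 and those of Ccne1 chr7:38883003-38892509. The kinases lie at chr10:126500659-126504338 (Cdk4) and chr5:3344312-3522225 (Cdk6). The inhibitors lie at chr17:29227931-29237667 (Cdkn1a), chr6:134870419-134875543 (Cdkn1b) and chr7:150644244-150646955 (Cdkn1c), and Myc at chr15:61816896-61821916. Apart from Ccnd3, none of the 10 overlaps another symbol in the tables.

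Genes around this machinery were counted from lists of the pathway. Of 24 other G1/S genes tested (of 28 listed), Ccng2, an atypical cyclin linked to cell cycle exit, was the only one called, and only in 12/- against +/+ (1.94 ± 0.223 SD in +/+ and 4.13 ± 1.04 in 12/-, log2 0.79 ± 0.16, limma adjusted p = 0.0472). In 12/- against +/+, 0.607% of all genes were called in either direction. The call of Ccng2 was kept in 9 of 27 alternatives. It was lost without any single library other than +/- replicate 2, +/12 replicate 2, 12/vg and 12/- replicate 2 (0.64 to 0.85). It was also lost with no scaling or upper quartile scaling, with a lower filter or none, with the number range as covariate and with only the groups compared. The list's median log2 difference from the mean of the 4 normal genotypes was -0.09, beside -0.00484 for all genes. In that comparison 6 of the 24 had an unadjusted p under 0.05 in limma, beside 11.5% of all genes. The difference was positive for 8 of the 24, beside 49.1% of all genes. The largest change by size other than Ccng2 was that of Fbxw7, the ubiquitin ligase subunit that targets cyclin E and Myc, at -0.40 ± 0.16, which did not pass.

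In the Myc network, 10 of 12 genes were tested. Mxi1, a Max partner that opposes Myc, was 3.37, 3.41 and 2.76 in 12/- and 1.12 to 2.17 in the normal libraries, with no overlap. Over all genes tested, 1.91% lay above the normal libraries in the same way. Of all genes, 0.607% were called in 12/- against +/+ and 0.787% against the mean of the 4. Mxi1 rose in 12/- against +/+ (log2 0.83 ± 0.15, limma adjusted p = 0.0212) and against the mean of the 4 (0.64 ± 0.12, limma adjusted p = 0.0171), and no other gene of the network was called. The second was lost without 12/- replicate 1 (0.61) or 2 (0.60), and the first without +/+ replicate 3 (0.76) or any 1 of the 12/- replicates (0.80, 0.79 and 0.90). With the number range as covariate both calls were lost (0.82 against +/+ and 0.63 against the mean of the 4), and with only the groups compared the one against +/+. Mycn was 17.5, 16.0 and 13.1 in 12/- and 7.44 to 15.5 in the normal libraries (0.45 ± 0.18 from the mean of the 4, limma adjusted p = 0.353).

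Among 20 genes of ribosome biogenesis and other biosynthesis that Myc is known to induce, Odc1, the first enzyme of polyamine synthesis, was the one called. It was 257, 161 and 199.9 in 12/- and 94.0 to 128 in the normal libraries. The log2 difference was 0.98 ± 0.16 from +/+ (limma adjusted p = 0.0120), 0.94 ± 0.16 from +/- (0.0147), 0.83 ± 0.16 from +/vg (0.0400) and 0.90 ± 0.12 from the mean of the 4 (0.00275). Against +/12 it was 0.85 ± 0.16 and missed the threshold (limma adjusted p = 0.0508). The other 19 were not called in any comparison, and the list's median difference from the mean of the 4 was 0.02. Of all genes, 0.607% were called against +/+, 0.569% against +/-, 0.445% against +/vg and 0.787% against the mean of the 4. Against +/+ the call was lost without +/+ replicate 3 (0.99) or 12/- replicates 1 (0.81) or 3 (0.99), and against +/- without +/- replicate 2 (0.90) or 12/- replicates 1 (0.77) or 3 (0.95). Against +/vg it was kept without +/- replicates 2 and 3, +/12 replicate 1, 12/vg and 12/- replicate 2, and lost without any other single library (0.66 to 0.92). These 3 calls were also lost with no scaling, with the number range as covariate (0.79, 0.82 and 0.71) and with only the groups compared. The call against +/- was lost with array weights and without the 2 shallow libraries too, and that against +/vg with no filter. The call against the mean of the 4 held without any 1 library but not with the number range as covariate (0.79, limma adjusted p = 0.0542) or within the low file numbers (0.82, limma adjusted p = 0.0806).

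None of 24 S phase and mitosis genes was called in any of the 9 comparisons in limma, where 0 to 3 of them had an unadjusted p under 0.05. In 12/- against the mean of the 4, 2 of them had an unadjusted p under 0.05, beside 11.5% of all genes, and their median log2 difference was -0.01. The largest differences were those of Rrm2, a subunit of ribonucleotide reductase, at -0.38 ± 0.18 and of Cdk1, the mitotic kinase, at 0.27 ± 0.12. Of 12 p53 pathway genes tested (of 16 listed), where Cdkn1a is a known target of the same factor, Btg2 was lower in 12/- than in +/vg (log2 -1.18 ± 0.22, limma adjusted p = 0.0400), with 20.1, 23.8 and 13.3 in +/vg and 8.34, 6.35 and 8.39 in 12/-. In 12/- against +/vg, 0.445% of all genes were called in either direction. Btg2 encodes an antiproliferative protein. The call was kept without +/- replicate 2, +/vg replicate 3, +/12 replicates 1 and 2 and 12/vg, and lost without any other single library (-1.24 to -1.01). It was also lost with no scaling, with no filter, with the number range as covariate (-0.94) and with only the groups compared. Against +/+ the difference was 0.17 ± 0.22. The list's median difference from the mean of the 4 was -0.06, and none of its genes was called higher.

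The hypoxia genes were chosen from genes already known to be higher in 12/- embryos and are no independent evidence. All 10 had a positive log2 difference against the mean of the 4 and against +/12, with medians of 1.70 and 1.47. Against the mean of the 4, 9 were called higher, where 0.787% of all genes were called in either direction. Against +/12, 4 were called higher, where 0.209% of all genes were called. Adm, the peptide adrenomedullin, rose most, with 18.8, 9.47 and 15.8 in 12/- and 0.841 to 2.39 in the normal libraries (2.72 ± 0.19, limma adjusted p = 2.89e-05). The 10 G1 regulators had a median of -0.04 with values from -0.80 to 0.79.

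**Figure D5:**
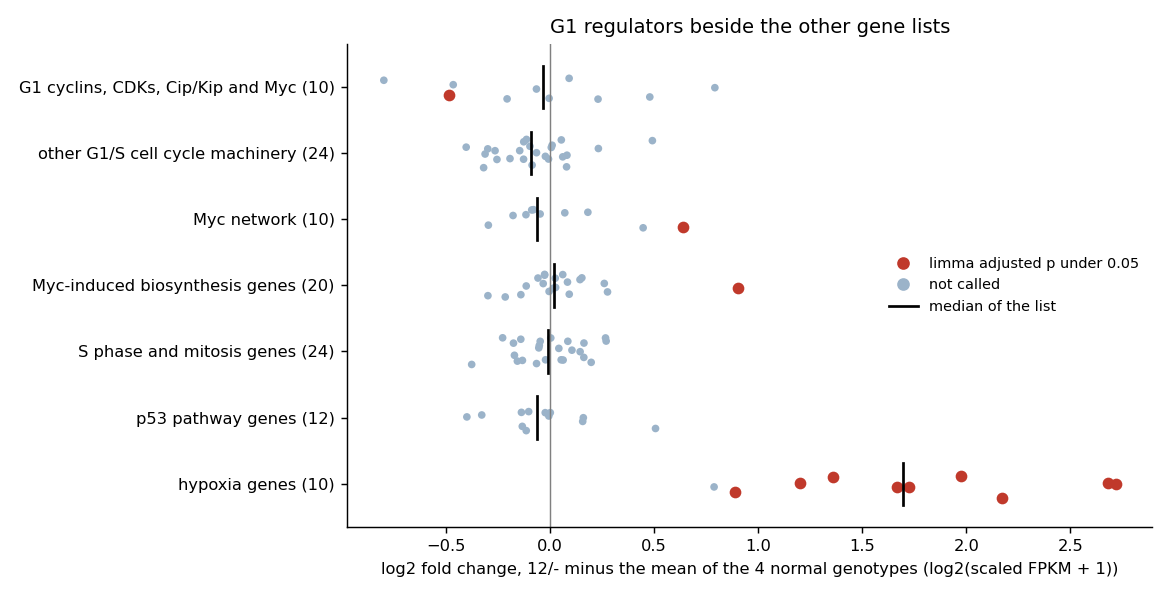
Log2 fold change of 12/- minus the mean of the 4 normal genotypes (horizontal axis, log2(scaled FPKM + 1)) for the genes of each list (vertical axis, with the number tested), 1 point per gene, larger red points for genes called and black lines for the medians. The S phase and mitosis genes centre at -0.01 with none called, and the hypoxia genes at 1.70.

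The genes most like Ccnd2 in profile over the 16 libraries, by the root mean square difference of log2 levels centred per gene, were Uggt1 (0.133), Gapvd1 (0.148) and Ubfd1 (0.156). The median over all genes tested was 0.375, and a gene with the same level in all libraries would be at 0.273. Ubfd1, for instance, averaged 23.2 in +/+, 19.0 in +/12 and 16.4 in 12/-. Cdkn1a had the largest range of genotype means of the 10, and its nearest genes were Cd9 (0.309), Hist1h2bc (0.318) and Dock8 (0.341). The median was 0.653 here, and a gene with the same level in all libraries would be at 0.601. Cd9 averaged 17.8 in +/+, 31.1 in +/12 and 42.0 in 12/-. Cd9 is also carried by platelets, and the summed platelet and megakaryocyte markers, 357 to 1506 in 12/- and 247 to 1977 in normal libraries, overlapped; their part in the Cdkn1a values was not tested.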

How the data were processed

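RNA was measured in CD31-sorted endothelial cells of 16 libraries. The authors deposited 1 table per library in the layout of cufflinks, with an FPKM and a coverage value for each of 28107 RefSeq transcripts, per the file headers. The submitters' processing notes name TopHat2 2.0.9 and the build mm9. The sources used here do not give the read length, the strandedness or the cufflinks version. The deposited FPKM values are not counts, so no count test was used. The deposited coverage is a mean read depth (signal) over a transcript, and coverage divided by FPKM was 1 constant per library (relative spread at most 1.99e-06), taken as the aligned gigabases.

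FPKM was summed per symbol with Python 3.11.15 and pandas 2.3.3, leaving out 211 symbols with a status other than OK in any library (87 of them averaging 1 or more). Libraries were divided by median-ratio factors (0.851 to 1.13) over 8610 genes. The 10550 symbols averaging an FPKM of 1 or more were fitted as log2(scaled FPKM + 1), pseudocount 1, with limma 3.58.1 in R 4.3.3 (lmFit, eBayes with trend, two-sided) over 16 libraries in 6 groups with 10 residual degrees of freedom. Fold changes of low genes are understated on this scale. Tests were adjusted by Benjamini-Hochberg over all genes and called under 0.05. The labels do not name separate embryos, so p-values reflect library-to-library spread only, part of which can be technical.

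All 10 genes are named. Of the other lists, genes called are named, or the 2 with the largest difference where none was called. Of 157 list and marker entries 156 matched a symbol. The genes, lists and rules were chosen with earlier results of these data known. Alternatives were other scalings, pseudocounts and filters, no trend, array weights, the file number range as covariate, only the groups compared, and leaving out the shallow libraries or each replicate. The comparison within low file numbers was added after seeing the data. On simulated data for 12/- against +/12 with 10550 genes, 77 of 100 genes with a log2 change of 1 and 90 of 100 with one of 2 were recovered, with 9 false calls. Both sets were planted in the same data, with independent normal noise and no effect of the number range. Recovery in the real comparison, where 22 genes were called, can be lower.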

Additional observations from a re-analysis of the deposited data

Results flagged for a closer look

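The 12/vg library enters no comparison, since its genotype has 1 library, and it was set beside the highest +/+ library. Cdk4 was 485 scaled FPKM in it, against 262 at most in +/+. Cdkn1a was 7.76, against 7.10, and Cdkn1b was 3.04, against 2.53. The other 7 genes did not exceed their highest +/+ level there. The library is 1 of the 2 shallow ones, with 0.262 gigabases, and the other shallow library also had a high Cdk4 level (675). No replicate bears on these differences, and the part of depth in them was not tested.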

How the results depend on the processing

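No paired analysis was possible because the replicate numbers follow accession order and pair no samples. Each choice was changed alone. The count of the 10 genes called in 12/- was 1 (Ccnd2) against +/+, +/- and the mean of the 4 normal genotypes. It was 0 in all 3 with no scaling and with the file number range as covariate, and also 0 against +/+ with only the groups compared. Against +/- it was 0 with a mean FPKM of at least 0.1, with no filter, without the trend, with array weights, with only the groups compared and without the 2 shallow libraries. Against the mean of the 4 it was 0 within the low file numbers. Leaving out each replicate gave 0 to 1 in each of the 3 comparisons. Ccnd2 was called in 20 of 27 alternatives against +/+ (log2 -0.82 to -0.61), 6 of 27 against +/- (-0.68 to -0.54), 16 of 28 against the mean (-0.54 to -0.37) and 0 of 27 against +/12 or +/vg. The cause of each loss was not tested. Of 123 fold changes with 3338 alternative values, the called ones kept their sign in every alternative. Among those not called, some changed sign. Myc against the mean of the 4 kept its sign in 18 of 28 alternatives. Cdkn1a in the interaction kept it in 19 of 27, and Cdkn1c in +/12 against +/+ in 22 of 27. The number of all genes called was 64 (20 to 143) against +/+, 60 (5 to 156) against +/-, 22 (3 to 92) against +/12, 47 (26 to 183) against +/vg, 83 (28 to 249) against the mean, and 5 (0 to 12) for the interaction. Against +/+, 0 genes were called in +/-, +/vg and +/12, and at most 4, 3 and 2 in any alternative. Depth was 0.189 and 0.262 gigabases in the 2 shallow libraries, and how it limits single genes was not tested.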
